A study of Zea mays with 7 samples.

Results

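The 22-nt length class of small RNAs recovered with maize ARGONAUTE proteins was compared between a table named AGO104 and a table named AGO105. These are 2 of the 10 tables of the series that are named by an antibody and a length class from 21 to 25, with 1 table per antibody and class. Each lists the depth of aligned small RNAs over stretches of the genome. The series also holds 7 libraries of small RNAs from immature ears, namely 2 each of B73, Mm (Mop1-1/mop1-1) and mm (mop1-1/mop1-1) and 1 labelled ago104, which were not used here.

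The AGO104 table holds the 22-nt class of the AGO104 antibody, and the AGO105 table holds the same class of the AGO105 antibody. For neither table do the sources used here state the genotype, the tissue, the age of the plants, the number of libraries or the genome build. The antibody therefore cannot be told apart from anything else that differed between the tables. With 1 table per antibody no test between antibodies was possible, and the differences below have no replicate check. Intervals are exact 95% intervals that cover counting error only. They take each alignment as a separate count, although a small RNA may be counted at several places, so they may be too narrow. No gene could be named and no marker gene could be read, since the build is not stated.

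ARGONAUTE proteins bind small RNAs and are led by them to matching nucleic acids. AGO104 and AGO105 belong to the branch of the family that takes part in RNA-directed DNA methylation, in which 24-nt small interfering RNAs are the usual guides. Maize also makes many 22-nt small interfering RNAs, which come from repeats, inverted repeats and hairpins and do not depend on MOP1, the RNA-dependent RNA polymerase that makes most of the 24-nt class.

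The AGO104 table held less material than the AGO105 table. Summed depth was 4437004 in AGO104 and 9802173 in AGO105, a ratio of 0.453. Covered bases numbered 252528 in AGO104 and 471656 in AGO105, with a mean depth of 17.6 and 20.8. Among stretches that stood alone, with a single depth throughout, 96.3% in AGO104 and 96.8% in AGO105 were 20 bases long. The class named 22 may thus not be the length of the aligned sequence, and 22-nt is used here as the name of the class. Most lone stretches of the other classes were likewise 2 bases shorter than their names. Summed depth was therefore divided by 20 to give alignments, which came to 221850 in AGO104 and 490109 in AGO105. An alignment is not a molecule, since a small RNA that matches several places may be counted at more than 1 of them. Of all alignments of an antibody over its 5 length classes, the 22-nt class made up 13.4% in AGO104 and 13.9% in AGO105. The 24-nt class made up 40.5% in AGO104 and 39.4% in AGO105, and the 21-nt class 19.2% and 23.8%. Each table was scaled to 1000000 units of its summed depth, so that 1 alignment is worth 4.51 scaled units in AGO104 and 2.04 in AGO105.

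Coverage lay in many shallow loci and a few very deep ones in both tables. Intervals within 100 bp of each other were merged into loci, of which there were 8651 in AGO104 and 16972 in AGO105 on chromosomes 1 to 10. The median locus held 5 alignments in both tables, and the upper quartile was 9 in AGO104 and 10 in AGO105. A single interval made up 82.4% of loci in AGO104 and 83.1% in AGO105. On the scaled values a locus of 5 alignments stands higher in AGO104, where each alignment is worth more units.

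The 10 deepest loci of each table held 52.7% of its coverage in AGO104 and 56.0% in AGO105. The deepest 1% of loci held 63.3% in AGO104 (87 loci) and 68.9% in AGO105 (170 loci). The first 50% of coverage lay in 9 loci in AGO104 and in 6 in AGO105. How a deep stretch was split into loci bears on these counts. The stretch that forms the deepest locus of AGO105, at chr2:157586183-157591960, was merged as separate loci in AGO104, at chr2:157588540-157591966 and chr2:157586134-157588378. When the intervals of both tables were merged together, the 10 deepest loci held 53.5% of AGO104 and 56.0% of AGO105 coverage. The curves of cumulative coverage met near 1000 loci, which held 77.7% in AGO104 and 78.0% in AGO105. Beyond that AGO104 was above AGO105, with 83.1% and 81.9% at 2000 loci and 92.2% and 88.8% at 5000, out of fewer loci in all.

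**Figure D1:**
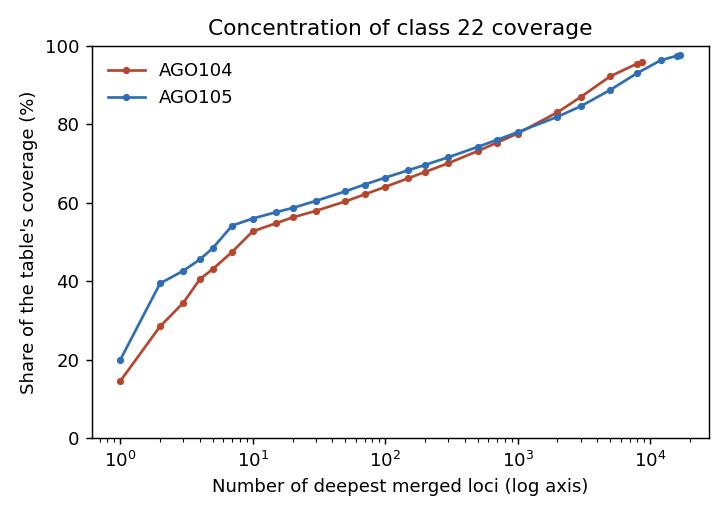
Share of a table's summed coverage (%, y axis) held by its deepest merged loci, against the number of loci counted from the deepest down (log axis), with AGO104 in red and AGO105 in blue. AGO104 lies below AGO105 at the deepest loci (52.7% against 56.0% in AGO105 at 10 loci) and above it at 2000 (83.1% against 81.9% in AGO105).

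The deepest coverage of both tables came from a pair of regions on chromosomes 2 and 10. The first, chr2:157585694-157595267, spans 9574 bp and held 21.45% of all AGO104 coverage and 20.97% of all AGO105 coverage. The second, chr10:35062993-35073680, spans 10688 bp and held 22.6% in AGO104 and 22.8% in AGO105. Together they held 44.0% of AGO104 and 43.8% of AGO105, a ratio of 1.01. The highest depth of each table stood in both regions, at 8999 in AGO104 and 19702 in AGO105. That is 2028 scaled units in AGO104 and 2010 in AGO105 at the deepest base.

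The profile of depth within each region was alike in the tables. On chromosome 2 the depths at the 6206 bases covered in either table had a Pearson's r of 0.974 and a Spearman's rho of 0.916 between AGO104 and AGO105. On chromosome 10 the same values were 0.968 and 0.910 over 6864 bases. Neighbouring bases share alignments, so these values describe the profiles and carry no p. The deepest base lay 6254 bp from the start of the chromosome 2 region in AGO104 and 6248 bp in AGO105. The deepest 100 bp held 19.1% of the chromosome 2 region's coverage in AGO104 and 19.3% in AGO105, and 18.1% and 17.7% of that of the chromosome 10 region.

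The pair also resembled each other within a table. Over their first 6000 bp, shifted by 1 base, depth on chromosome 2 and on chromosome 10 correlated with r of 0.948 in AGO104 and 0.978 in AGO105. The depth was exactly equal at 76.9% of covered bases in AGO104 and at 74.7% in AGO105. A small RNA that matches both copies may have been counted at both, and how many molecules lay behind the alignments cannot be read from coverage. The ratio varied along each region. In the chromosome 10 region, the 100 bp centred 650 bp from the start had 3189 scaled units in AGO104 and 6739 in AGO105, and those centred at 1450 bp had 5205 in AGO104 and 11298 in AGO105. The end of that region had like values, with 3098 in AGO104 and 6661 in AGO105 at 9850 bp. Other places of the chromosome 10 region went the other way. At 550 bp there were 2829 scaled units in AGO104 and 1174 in AGO105, and at 5450 bp 3825 and 1999. Locus chr10:35072198-35073680 had 5695 alignments in AGO104 and 15961 in AGO105, a scaled ratio of 0.788 (0.765 to 0.813). Locus chr2:157594448-157595267 had 1960 in AGO104 and 4927 in AGO105, a ratio of 0.879 (0.834 to 0.926). The long first pieces had ratios of 1.03 (1.02 to 1.04) on chromosome 2 and 1.02 (1.01 to 1.04) on chromosome 10.

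**Figure D2:**
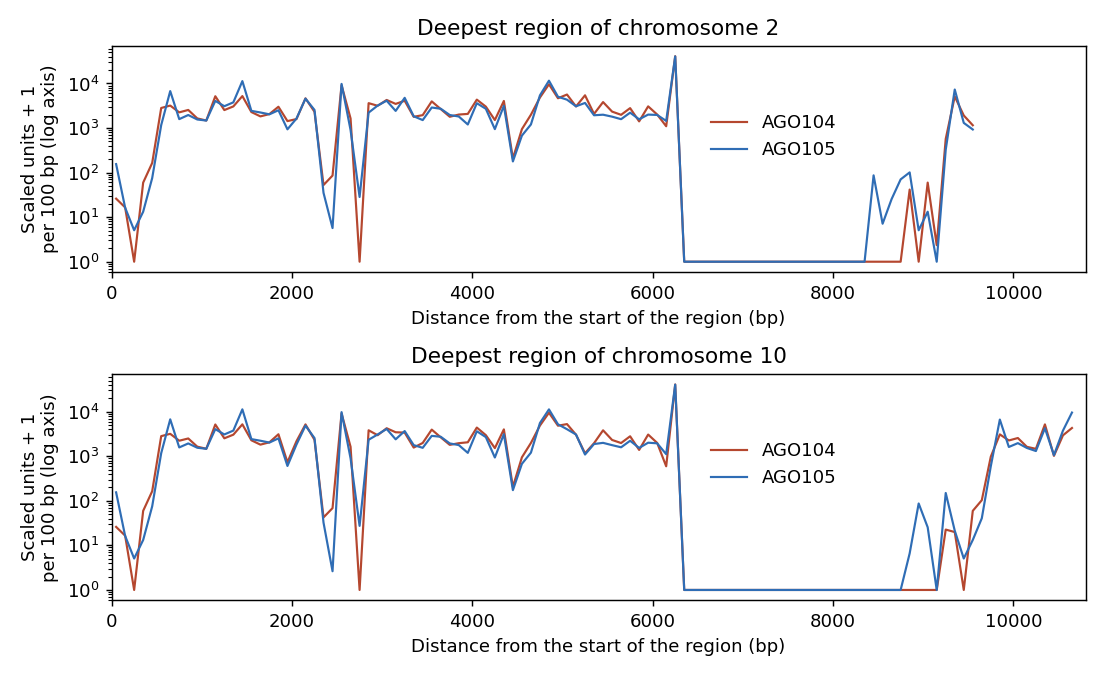
Scaled coverage plus 1 in each 100 bp (log axis) against the distance from the start of the deepest region of chromosome 2 (upper panel) and of chromosome 10 (lower panel), with AGO104 in red and AGO105 in blue. The lines follow each other over most of both panels and share a peak near 6250 bp. The deepest 100 bp held 19.1% of the region in AGO104 and 19.3% in AGO105 on chromosome 2. The lines part at single places such as 1450 bp (5205 units in AGO104 and 11298 in AGO105). On chromosome 10 they part the other way at 550 bp (2829 in AGO104 and 1174 in AGO105).

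The next deepest loci were 4 compact ones of 126 to 150 bp, at chr3:2039011-2039160, chr3:215788783-215788908, chr8:27608265-27608393 and chr8:152709468-152709600. All 4 took a smaller share of AGO104 than of AGO105. Each held 2.18% or 2.19% of AGO104 coverage and 2.86% to 2.88% of AGO105 coverage. Their sum was 8.74% in AGO104 and 11.5% in AGO105, a ratio of 0.760. At chr3:2039011-2039160, alignments numbered 4861 in AGO104 and 14126 in AGO105, and the interval of the ratio ran from 0.736 to 0.786. The other 3 had ratios between 0.759 and 0.761. These 4 are not 4 separate counts, since their highest depths are nearly equal. The depths ran from 4812 to 4862 in AGO104 and from 13998 to 14086 in AGO105. They were closest within the pair of loci 3:2039011 and 8:27608265 and within the other pair.

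Nearly all of each compact locus was a single stretch of 20 bases. That stretch held at least 99.7% of the locus in either table, with a depth of 4860 in AGO104 and 14086 in AGO105 at chr3:2039140-2039159. A shallow second peak stood 105 to 111 bp away. Its depth was 1 or 15 in AGO104 and 24 or 38 in AGO105. The deep stretch was on the right of the chromosome 3 loci and on the left of the chromosome 8 loci.

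The same 4 loci had different depth in the other length classes. The highest depth in the 21-nt class was 3184 or 3096 in AGO104 and 9504 or 9349 in AGO105, which is 511 to 526 scaled units in AGO104 and 587 to 597 in AGO105. In the 22-nt class the scaled depth was 1085 to 1096 in AGO104 and 1428 to 1437 in AGO105. In the 24-nt class it was at most 1.22 scaled units in AGO104 and at most 0.787 in AGO105. These scaled values are shares of different tables and are not levels across classes. At 3:2039011 and 8:27608265 the second peak was deeper in the 21-nt class, at 767 in AGO104 and 2657 in AGO105.

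Among the 10 deepest loci of the joined tables, 2 more lay side by side near the end of chromosome 10. Locus chr10:146398919-146400270 had 860.0 alignments in AGO104 and 1817 in AGO105, a ratio of 1.05 (0.963 to 1.13). Its neighbour chr10:146397155-146398506 had 868 in AGO104 and 1770.0 in AGO105, a ratio of 1.08 (0.998 to 1.18). Both intervals include equal shares. The locus ranked 9 in AGO105 alone, chr1:5760493-5761124, had 619 alignments in AGO104 and 2217 in AGO105, a ratio of 0.617 (0.563 to 0.675).

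The chromosome shares followed these loci. Chromosome 2 held 26.3% of AGO104 and 25.8% of AGO105 coverage, and chromosome 10 held 27.2% in each. Outside the 10 deepest loci of the joined tables, chromosome 2 held 10.5% of AGO104 and 10.9% of AGO105, and chromosome 10 held 8.16% and 8.28%. The remaining chromosomes held between 3.06% and 8.37% of AGO104 and between 2.59% and 9.62% of AGO105. Chromosome 1 was the highest outside the deepest loci, with 18.02% in AGO104 and 17.60% in AGO105.

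By summed coverage, chromosomes 7 and 8 had the ratios farthest from 1. By covered bases, those farthest from 1 were chromosome 10 (1.16) and chromosome 9 (0.896). Chromosome 8 held 6.78% of AGO104 and 8.67% of AGO105, a ratio of 0.782 (0.768 to 0.797). Chromosome 3, which carries the other pair of compact loci, held 8.17% of AGO104 and 9.62% of AGO105, a ratio of 0.849 (0.835 to 0.864). Without the 10 deepest loci the ratio was still 0.781 on chromosome 8, and it was 0.931 on chromosome 3. By covered bases, which do not weigh depth, chromosome 8 held 6.05% of AGO104 and 6.55% of AGO105.

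Chromosome 7 went the other way, with 3.74% of AGO104 and 2.59% of AGO105, a ratio of 1.44 (1.40 to 1.48). Outside the 10 deepest loci it was 8.05% of AGO104 and 5.89% of AGO105. By covered bases the difference was not seen, with 6.96% of AGO104 and 6.94% of AGO105 on chromosome 7. On this chromosome 6 loci of at least 200 alignments were over 2-fold higher in AGO104. They held 43.1% of the chromosome's coverage in AGO104 and 14.8% in AGO105, and without them the ratio of the chromosome was 0.964. These 6 loci were picked out after their values were seen, and leaving out loci that are higher in AGO104 can only lower the ratio. Some of the 6 lie close together, as from chr7:46247805 to chr7:46288585, so they are not 6 separate regions.

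**Figure D3:**
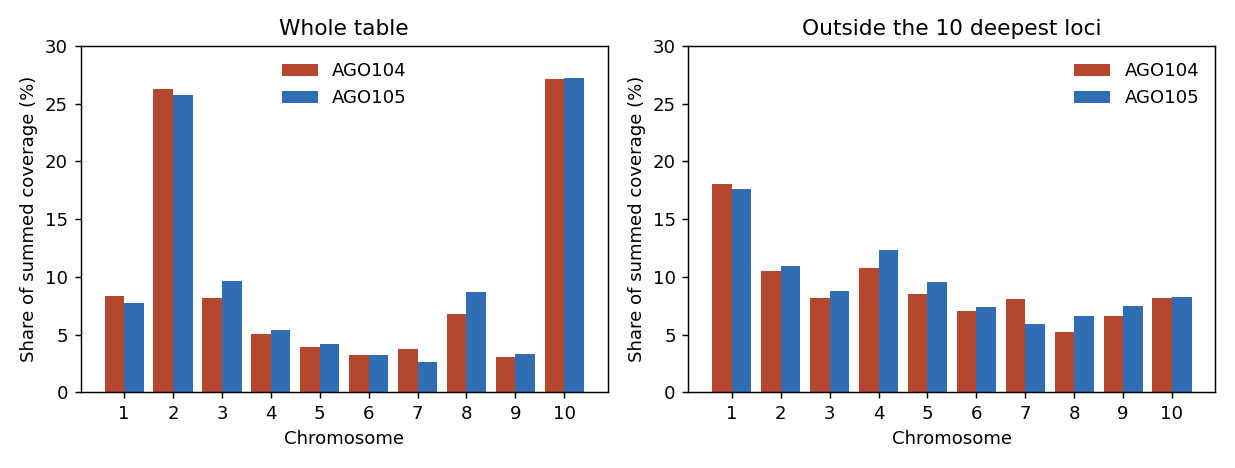
Share of a table's summed coverage (%, bars from 0) on chromosomes 1 to 10, for the whole table (left) and outside the 10 deepest loci of the joined tables (right), with AGO104 in red beside AGO105 in blue. Chromosomes 2 and 10 stand out in both tables on the left and not on the right, chromosome 7 is higher in AGO104 and chromosome 8 lower in AGO104 in both panels.

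Along the chromosomes, a slightly smaller share lay near the ends in AGO104. The outer 20% at either end held 30.2% (30.0 to 30.4) of AGO104 and 33.1% (33.0 to 33.3) of AGO105 coverage on chromosomes 1 to 10. Outside the 10 deepest loci the shares were 45.9% in AGO104 and 48.3% in AGO105, and of covered bases 43.7% and 44.8%. The loci themselves did not follow that order, with 45.7% of AGO104 and 45.3% of AGO105 loci in the ends. In the 24-nt class the ends held 39.2% of AGO104 and 40.9% of AGO105 coverage, and in the 21-nt class 36.3% and 38.5%. In the 23-nt class the order was the other way, with 21.1% in AGO104 and 19.96% in AGO105, and in the 25-nt class the shares were 14.21% in AGO104 and 14.22% in AGO105.

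Chromosomes were also cut into 10 bins of equal length. Bin 3, which holds the deepest region of chromosome 10, had 28.6% of coverage in AGO104 and 27.3% in AGO105. Bin 7, which holds that of chromosome 2, had 25.8% in AGO104 and 24.8% in AGO105. The remaining bins held under 10% each in both tables. Outside the 10 deepest loci the first bin held 14.1% in AGO104 and 14.6% in AGO105, and the last 13.4% and 14.5%.

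**Figure D4:**
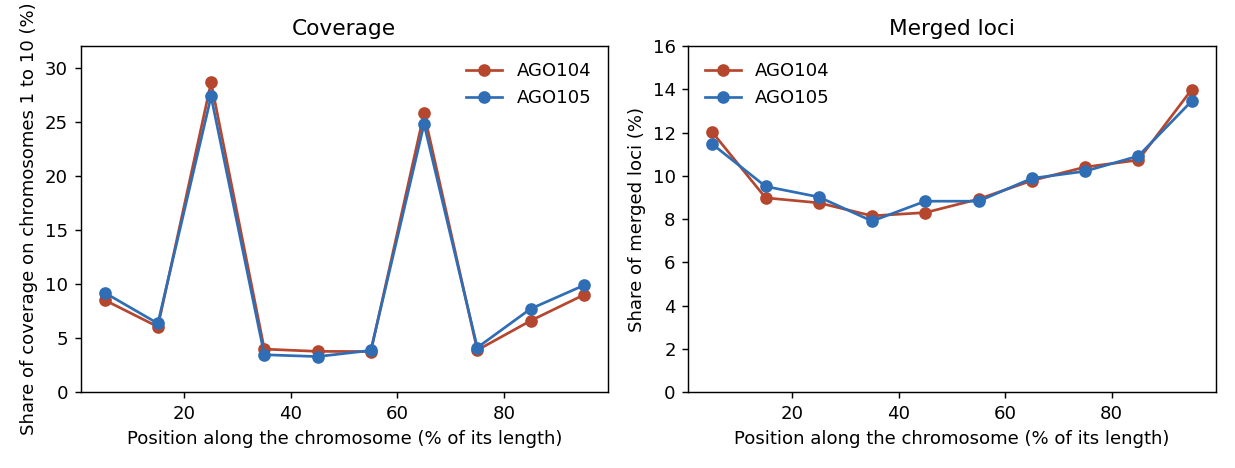
Share of coverage on chromosomes 1 to 10 (%, left) and of merged loci (%, right) in 10 equal bins of the chromosome's length, against position (% of the length), with AGO104 in red and AGO105 in blue. Coverage peaks in bin 3 (28.6% in AGO104 and 27.3% in AGO105) and in bin 7, while loci are spread with higher shares at the ends.

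Few loci were shared, but those that were held most of the coverage. Of AGO104 loci 31.9% overlapped an AGO105 locus by at least 1 base, and of AGO105 loci 15.6% overlapped an AGO104 locus. The overlapping loci held 85.3% of the coverage of chromosomes 1 to 10 in AGO104 and 82.6% in AGO105. The overlap followed depth. Of loci with 5 to 20 alignments, 31.6% in AGO104 and 13.3% in AGO105 overlapped the other table. Of those with 20 to 100 alignments it was 93.6% in AGO104 and 76.2% in AGO105. Every locus of at least 100 alignments overlapped, which was 127 loci in AGO104 and 232 in AGO105. The number of loci in the other table bears on these shares, and AGO104 had 0.510 times as many loci as AGO105, with 0.453 times its alignments.

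Stretches that stood alone were also seldom the same in both tables. Of these stretches, 814 had the same start and end in both tables, which is 9.17% of those of AGO104 and 4.77% of those of AGO105. Their depths had a rho of 0.307. The median depth of a lone stretch was 4 in both tables, and 18.49% in AGO104 and 21.32% in AGO105 had a depth of 1.

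Coverage in windows of 0.5 Mb was related between the tables, with wide scatter. Of 4216 windows, 4055 were covered in either table, 147 in AGO104 alone and 914 in AGO105 alone. Across the 4055 the scaled values had a Spearman's rho of 0.464, and log2 values, taken after adding 10 scaled units, a Pearson's r of 0.639. Log2 ratios below carry these 10 units, and plain ratios with an interval do not. Among the 2506 windows with at least 20 alignments in the tables together, rho was 0.344. These windows share their table and its depth, so rho is a description. With windows of 0.1 Mb rho was 0.0165, and with 1 Mb it was 0.639. Both values take in windows covered in a single table, and the effect of these on rho was not tested.

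Of the 2506 windows, 427 were at least 2-fold higher in AGO104 (17%) and 699 at least 2-fold lower (27.9%). The median log2 ratio was -0.18. This split depends on which windows are counted. With a minimum set on the mean of the scaled values, 506 of 2323 windows were higher in AGO104 (21.8%) and 478 lower (20.6%), with a median of 0.02. That minimum is not neutral either. A window covered in AGO104 alone reaches it with fewer alignments, since each is worth more units. No direction over all windows is therefore read from these counts.

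The split changed with depth. Of the 1491 windows of 20 to 50 alignments, 287 were higher in AGO104 and 505 lower, and of the 332 windows of 100 to 500 alignments, 44 were higher and 43 lower. Of the 102 windows with at least 500 alignments, 15 were higher in AGO104 (14.7%) and 1 was lower (0.98%). Over all 2506 windows the shares were 17% and 27.9%. The share higher in AGO104 was thus no larger in the deep windows, and the share lower was smaller. The median log2 ratio in those 102 was -0.18, so the 15 lay in a tail on the AGO104 side.

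**Figure D5:**
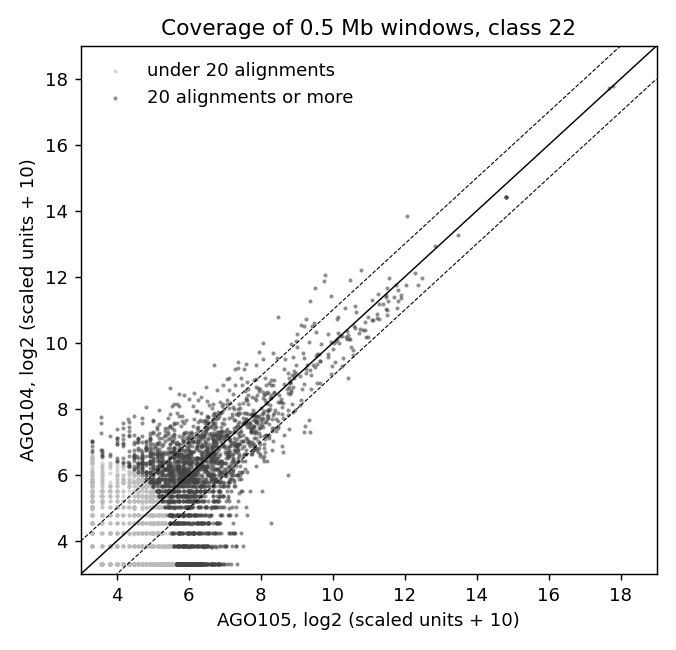
Scaled coverage plus 10 of each 0.5 Mb window in AGO104 (y axis, log2) against AGO105 (x axis, log2), with windows of at least 20 alignments in dark grey and the others in light grey. The solid line marks equal values and the dashed lines 2-fold, and the deep windows lie along the solid line with a tail above the upper dashed line, while shallow windows scatter (rho of 0.464 over 4055 windows).

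Windows with the highest ratios were shallow. Among those with at least 50 alignments, the highest were 1:263000001-263500000, with 47 alignments in AGO104 and 6 in AGO105 (log2 ratio 3.32), 10:139500001-140000000, with 57 in AGO104 and 9 in AGO105 (3.23), and 3:61000001-61500000, with 86 in AGO104 and 17 in AGO105 (3.15). The next, 2:151500001-152000000, had 45 in AGO104 and 7.95 in AGO105 (3.02), and 1:180500001-181000000 had 54.2 in AGO104 and 13 in AGO105 (2.80). Their coverage was spread over 5 to 10 loci, and in 4 of the 5 windows the deepest locus had no AGO105 alignment.

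At the other end, 4 of the 5 lowest windows had no AGO104 alignment. These were 2:83000001-83500000 with 74 AGO105 alignments, 5:211000001-211500000 with 65.6, 4:39000001-39500000 with 61.95 and 10:23500001-24000000 with 58. Against a floor of 3 alignments in AGO104 they were at least 11.2-fold, 9.90-fold, 9.35-fold and 8.75-fold lower in AGO104, in that order. Window 6:3500001-4000000 had 3 alignments in AGO104 and 149 in AGO105, a ratio of 0.0445 (0.00907 to 0.133), and 117 of the AGO105 alignments lay in chr6:3547915-3547983.

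The comparison by locus had the same form. The intervals of both tables together gave 22196 loci, of which 2946 were covered in both, 5431 in AGO104 alone and 13819 in AGO105 alone. Across the 2946 the rho of scaled coverage was 0.541. Across all 22196 it was -0.299, since most of them are covered in a single table. Among the 1859 loci with at least 20 alignments, 357 were at least 2-fold higher in AGO104 (19.2%) and 525 at least 2-fold lower (28.2%), with a median log2 ratio of -0.21. Of the 1859, 227 had no AGO104 alignment and 31 had no AGO105 alignment. The minimum counts the alignments of both tables together, and AGO105 had more of them. A locus covered in AGO105 alone therefore passes it more readily than a locus covered in AGO104 alone. With a minimum on the mean of the scaled values, 600 of 1829 loci were higher in AGO104 (32.8%) and 297 lower (16.2%), with a median of 0.28. Here too the order of the counts turned with the filter. A locus covered in AGO104 alone reaches that minimum with fewer alignments than a locus covered in AGO105 alone.

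The locus with the highest ratio was chr7:136980742-136980805, with 60.2 alignments in AGO104 and 1 in AGO105, a ratio of 133 (22.9 to 5322). It covers 64 bp, and its alignments start at 4 places. Locus chr4:143105052-143105332 had 60.5 alignments in AGO104 and 9.6 in AGO105, a ratio of 13.9 (6.73 to 29.0), and chr2:98046856-98047185 had 72.6 in AGO104 and 14 in AGO105, a ratio of 11.4 (6.45 to 22.1). Loci chr3:154016291-154016393 and chr2:66782700-66782949 followed, with ratios of 12.3 and 11.8 and log2 ratios of 3.08 and 3.06.

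The lowest loci were short, and 4 of the 5 had no AGO104 alignment. Loci chr2:2276039-2276058 and chr2:124789989-124790008 each had no AGO104 alignment and 82.95 AGO105 alignments. Both were at least 12.5-fold lower in AGO104, by the floor of 3 alignments. Their coverage is the same in each table, so they may not be separate counts. Locus chr3:100946928-100946957 had 0 in AGO104 and 82 in AGO105 (at least 12.4-fold lower), and chr1:52980469-52980489 had 0 in AGO104 and 65 in AGO105 (at least 9.81-fold lower). Locus chr10:115906137-115906196 had 2 in AGO104 and 125 in AGO105, a ratio of 0.0353 (0.00423 to 0.130). Of the 744 loci with at least 50 alignments, 16 had none in AGO104 and 0 had none in AGO105. That minimum is reached more readily by AGO105 alone, since AGO105 had more alignments. Of the 744, 83 were covered in both tables and had the same coverage as another locus. Loci covered in a single table were not compared in this way.

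Deep loci had few ratios past 2-fold, and of the 174 with at least 200 alignments 27 were higher in AGO104 and 8 lower. Of the 138 loci with 200 to 1000 alignments, 23 were higher in AGO104 (16.7%) and 8 lower (5.8%). Of the 36 with at least 1000, 4 were higher (11.1%) and 0 lower. Over all 1859 tested loci the shares were 19.2% and 28.2%. The share higher in AGO104 was thus no larger in these deep loci, and the share lower was smaller. The 36 had a median log2 ratio of -0.29, with values between -0.95 and 2.41. The 4 higher ones were chr1:15412852-15414341, with 918 alignments in AGO104 and 378 in AGO105 (ratio 5.37, 4.75 to 6.06), chr7:46262445-46264076, with 1199 in AGO104 and 562 in AGO105 (ratio 4.71, 4.26 to 5.22), chr1:56683736-56684997, with 815 in AGO104 and 382 in AGO105 (ratio 4.71, 4.17 to 5.34), and chr7:46266221-46269783, with 909 in AGO104 and 679 in AGO105 (ratio 2.96, 2.67 to 3.27). These 4, and the deep loci that follow, were picked out after their values were seen.

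The organelle sequences took a larger share of AGO104 than of AGO105. The sequences named Pt and Mt, by the usual names those of the plastid and the mitochondrion, held 2.05% and 2.16% of AGO104 and 0.804% and 1.48% of AGO105. The ratio was 2.55 (2.45 to 2.67) for Pt and 1.47 (1.41 to 1.52) for Mt. Nuclear genomes of plants hold copies of organelle DNA, and small RNAs that match such a copy can be placed on either sequence. The depth profile of each locus with at least 200 alignments and at least 100 covered bases was therefore slid along Pt and Mt, and the best Pearson's r was kept. Of these 122 loci, 24 were higher in AGO104 and 5 lower, beside 19.2% and 28.2% of all 1859 tested loci. The share higher in AGO104 was thus close to that of all tested loci.

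Of the 122, 7 matched Pt or Mt with r of at least 0.9, of which 5 were over 2-fold higher in AGO104 and 0 lower. The median log2 ratio of the 7 was 2.22, with values between -0.71 and 2.64. They include chr7:18706057-18706226 (487 alignments in AGO104 and 169 in AGO105, log2 ratio 2.64), chr3:46973404-46974116 (380 in AGO104 and 164 in AGO105, 2.32), and, from the 4 above, chr7:46262445-46264076 (r 0.980) and chr1:56683736-56684997 (r 0.945). Locus chr1:25984360-25984657 matched Mt with r of 0.932 and had 251 alignments in AGO104 and 142 in AGO105 (1.93). The best r had a median of 0.767 over the 24 loci higher in AGO104, 0.649 over the 93 within 2-fold and 0.780 over the 5 lower ones. The nearest sequence was Pt for 20 of the 24, for 38 of the 93 and for 2 of the 5. The best r compares the shapes of depth profiles and not sequence, and it was kept from many positions. No background of r was taken, so a match does not show that a locus holds organelle sequence. The part of organelle sequence in the higher deep loci was not tested. Without the 7 matching loci the counts over all loci were 352 higher in AGO104 and 525 lower. These counts follow from the 5 higher and 0 lower loci left out, so they are not a check.

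The deep loci that were lowest in AGO104 were chr4:38829611-38830046, with 71 alignments in AGO104 and 418 in AGO105 (log2 ratio -1.39), and chr3:7521752-7522280, with 73 in AGO104 and 388 in AGO105 (-1.24). Deep loci higher in AGO104 were found on 8 of the 10 chromosomes. Several lie close together, as from chr7:46247805 to chr7:46288585 and from chr10:48831260 to chr10:48845423. Loci chr4:85151689-85151709 and chr4:85188380-85188400 have the same coverage. The counts of deep loci are therefore not counts of separate regions.

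The 22-nt class was set beside the other classes of the same antibody. Across 0.5 Mb windows, rho with the 21-nt class was 0.255 in AGO104 and 0.439 in AGO105, and with the 24-nt class 0.310 in AGO104 and 0.373 in AGO105. A locus of the 21-nt class overlapped 14.3% of 22-nt loci in AGO104 and 12.7% in AGO105, and a locus of the 24-nt class 18.4% and 21.9%. Of 22-nt loci with at least 20 alignments, the 21-nt class overlapped 74.1% in AGO104 and 66.8% in AGO105, and the 24-nt class 67.3% and 67.1%. Between the antibodies, rho across windows was 0.464 in the 22-nt class, 0.400 in the 21-nt class, 0.443 in the 23-nt class, 0.763 in the 24-nt class and 0.222 in the 25-nt class. The 24-nt tables have the largest summed depth of the series, and the effect of that on these values was not tested.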

How the data were processed

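The authors deposited coverage per interval, a signal of whole-number depths of at least 1, listing covered bases only and not scaled for depth. The labels name Bowtie 1.2.2 and bedtools for the libraries. For the tables by length class the aligner, the build, the genotype and the number of libraries pooled are not given in the sources used here. Rules for reads with several matches bear on every repeat, and these are not stated either.

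Each table was scaled to 1000000 of its summed coverage. Intervals within 100 bp were merged into loci, and chromosomes were cut into windows of 0.5 Mb. Alignments are summed depth divided by 20, the length of most lone stretches, in place of the 22 first intended. Log2 ratios used a pseudocount of 10 scaled units and a minimum of 20 alignments in the tables together. The regions named are the 5 highest and 5 lowest log2 ratios among windows and among loci with at least 50 alignments, and the 10 deepest loci. Ratio and share intervals are Clopper-Pearson at 95%, on alignments rounded to whole numbers and taken as separate counts. Since there is 1 table per antibody, no test between antibodies was run. The members and lists were chosen with earlier results of these data known. Python 3.11.15, numpy 2.4.6, pandas 2.3.3, scipy 1.17.1 and matplotlib 3.10.9 were used.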

Additional observations from a re-analysis of the deposited data

How the results depend on the processing

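No paired analysis was possible because there is 1 table per antibody, with no replicate number, and for the same reason no replicate could be left out. Of 94 values recomputed under an alternative, 39 moved little, 54 moved further and 1 changed sign. Each count was judged alone. The order of higher and lower counts turned with a pseudocount of 100 and with a minimum of 100 alignments, for windows and loci. It turned as well with a minimum mean of 30 scaled units. The cause was not tested unless the setting itself shows it. Counts of windows at least 2-fold higher and lower in AGO104 were 96 and 54 with a pseudocount of 100, 744 and 1248 with no minimum, 59 and 44 with a minimum of 100 alignments, and 245 and 388 in windows of 1 Mb, and 273 were higher by covered bases. For loci the counts were 123 higher and 38 lower with a pseudocount of 100, and 58 and 41 with a minimum of 100 alignments. Of loci with at least 3 start places, 326 were lower. With a minimum mean of 30 scaled units, 600 loci were higher and 297 lower. That alternative, the 3 start places and a minimum relative to the table's alignments were chosen after seeing the data. The Spearman rank correlation across windows was 0.344 with a minimum of 20 alignments, 0.0165 in windows of 0.1 Mb and 0.639 in windows of 1 Mb. Across loci the rank correlation was 0.356 with the minimum of 20 and -0.299 over loci covered in either table.

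The difference on chromosome 8, -1.89 percentage points, was -0.499 by covered bases and -1.45 outside the 10 deepest loci. The share in chromosome ends was 17.5% in AGO104 and 19.1% in AGO105 for the outer 10%, 43.7% and 44.8% by covered bases, and 45.9% and 48.3% outside the deepest loci. The overlapping share of AGO104 and of AGO105 loci was 37.3% and 19.1% with only touching intervals merged, 28.9% and 14.1% merged within 500 bp, 33.5% and 16.9% for loci of at least 2 alignments, and 35.8% and 17.9% for at least 5 (4852 loci in AGO104 and 9243 in AGO105). With a minimum of 20 per 1000000 alignments it was 30.0% and 31.3%, over 4875 loci in AGO104 and 4391 in AGO105. The median locus of at least 5 alignments held 9 in both tables. The 10 deepest loci held 23.1% of AGO104 and 28.9% of AGO105 with touching intervals merged, and 54.1% and 56.6% merged within 500 bp, and the 100 deepest 64.1% and 66.4%. The top 1% held 55.5% and 63.7% with touching intervals merged, and 66.2% and 72.3% within 500 bp.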
